A study of Homo sapiens with 4 samples.

Results

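The outermost 1 Mb of the autosomes was examined in the CTCF and H3K27ac peak lists of DU145, an established human prostate cancer line whose cells came from a brain metastasis. Members were all peaks on chromosomes 1 to 22 that ended before base 1000000 of the chromosome, or that started within 1 Mb of the last peak end seen in either list. They numbered 903 CTCF and 1859 H3K27ac peaks, together 2762 of 86516 peaks (3.19%). The rule itself uses positions only, but the strong CTCF peaks known at the starts of chromosomes 16 and 9 prompted the interest in chromosome ends. Of the 44 autosome ends, 39 held peaks: 17 short-arm (p) ends and all 22 long-arm (q) ends. The short arms of chromosomes 13, 14, 15, 21 and 22 had no peak in their outermost 5 Mb. The next 4 Mb inward from the same 39 ends, with 2848 CTCF and 5695 H3K27ac peaks, served as the comparison.

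The series holds 4 libraries: DU145 chromatin recovered with a CTCF antibody, DU145 chromatin recovered with an H3K27ac antibody, and input chromatin from DU145 and from LNCaP, another prostate cancer line. The labels name no treatment, and the cells were grown in serum-containing medium and fixed with formaldehyde before sonication. There was 1 library for each mark, so no value has a replicate error and no test between conditions was possible. All intervals are at the 95% level and cover counting error only. Neighbouring peaks are not independent, so the intervals are too narrow.

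Chromosomes end in telomere repeats, and the sequence just inside them, the subtelomere, is a patchwork of segments that recur at many chromosome ends, followed inward by single-copy, often gene-rich DNA. CTCF is a zinc finger protein that binds DNA at insulators and loop anchors. It is also known to bind subtelomeric promoters from which the telomeric RNA TERRA is transcribed. H3K27ac is acetylation of lysine 27 of histone H3, laid down by the acetyltransferases p300 and CBP at active promoters and enhancers.

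Both marks were denser in the outermost 1 Mb than in the next 4 Mb as a whole, but not than in the 1 Mb directly inside it. CTCF had 23.2 peaks per Mb at the ends (exact Poisson interval 21.7 to 24.7) and 18.3 in the next 4 Mb (17.6 to 18.9). H3K27ac had 47.7 peaks per Mb at the ends (45.5 to 49.9) and 36.5 in the next 4 Mb (35.6 to 37.5). The density ratios were 1.27 for CTCF (exact conditional interval 1.18 to 1.37) and 1.31 for H3K27ac (1.24 to 1.38), so the marks were raised by similar factors. From 1 to 2 Mb, however, CTCF had 22.9 summits per Mb (21.4 to 24.5) and H3K27ac 53.3 (51.0 to 55.6), and the lower density lay beyond 2 Mb. On the remaining autosomal sequence CTCF had 11.9 and H3K27ac 15.9 peaks per Mb. There the balance differed: the ends had 2.06 H3K27ac peaks per CTCF peak (1.90 to 2.23), the next 4 Mb 2.0 and the remaining sequence 1.34.

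The peaks at the ends were otherwise like those of the next 4 Mb. Median CTCF width was 294 bases against 298, and median H3K27ac width 545 against 558. CTCF peaks covered 0.788% of the sequence at the ends and 0.615% of the next 4 Mb. H3K27ac peaks covered 3.97% and 3.18%. Fold enrichment is the authors' value for each peak and was compared only within a list. Its median was 10.3 for CTCF at the ends (order-statistic interval 9.76 to 10.9) and 10.8 in the next 4 Mb (10.3 to 11.2), and for H3K27ac it was 4.55 and 4.37. The share of CTCF peaks in the top 10% of the list by fold was 15.1% at the ends (Wilson interval 12.9 to 17.5), 16.2% in the next 4 Mb and 9.75% on the remaining sequence, against 10.0% of the whole list (ties included). For H3K27ac the shares were 12.2%, 10.9% and 9.96%, against a list share of 10.0%. H3K27ac peaks of 3 kb or more made up 2.74% at the ends (51 peaks) and 2.70% in the next 4 Mb. Local background, solved from the deposited values, stood at the lowest level of its list for 43.9% of CTCF and 49.8% of H3K27ac peaks at the ends. In the next 4 Mb these shares were 45.8% and 46.1%, and on the remaining sequence 27.5% and 26.1%. How far background bears on the higher density in the outer 5 Mb was not tested.

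The 2 marks changed with distance in different ways, and neither changed at 1 Mb. CTCF was densest in the outermost 100 kb, with 31.8 summits per Mb (26.4 to 37.9). It lay between 20.2 and 23.1 per Mb in every interval from there to 2 Mb, and between 15.8 and 17.5 per Mb from 2 to 5 Mb. H3K27ac went the other way at first. It had 27.2 summits per Mb in the outermost 100 kb (22.3 to 32.9), 37.6 from 100 to 250 kb, 46.5 from 250 to 500 kb and 55.5 from 500 kb to 1 Mb (52.2 to 58.9). It stayed at 53.2 and 53.4 per Mb as far as 2 Mb inward and was 36.1 from 2 to 2.5 Mb. The outermost 100 kb thus held 0.855 H3K27ac peaks per CTCF peak (0.653 to 1.12), and the stretch from 500 kb to 1 Mb held 2.41 (2.16 to 2.70). The value of 0.855 includes 18 CTCF and 4 H3K27ac peaks that lie there by the rule, because they set the long-arm ends. In the outermost 100 kb the ratio was 1.11 on short arms (0.693 to 1.78) and 0.747 on long arms (0.533 to 1.04). With the ends set at 0.5 Mb, the H3K27ac density ratio was 1.02 (0.946 to 1.10). With the ends set at 2 Mb it was 1.76 for H3K27ac and 1.47 for CTCF.

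**Figure D1:**
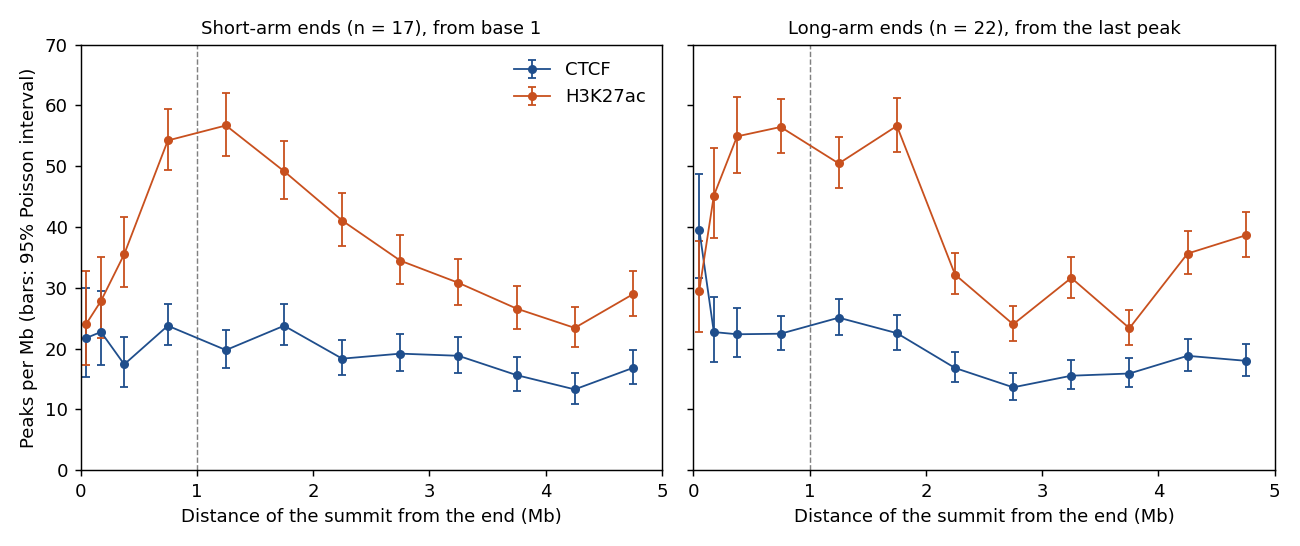
Peaks per Mb (vertical axis, with exact Poisson 95% intervals) by distance of the summit from the end in Mb, for 17 short-arm ends (left, measured from base 1) and 22 long-arm ends (right, measured from the last peak); the dashed line marks 1 Mb. H3K27ac is lower in the outermost 100 kb than between 0.5 and 2 Mb, where it is highest. CTCF is highest in the outermost 100 kb on the long arms only, as measured here. Any unsequenced DNA after base 1 lowers the outermost short-arm values and was not examined.

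As measured here, the CTCF maximum in the outermost 100 kb was seen on the long arms and not on the short arms. Long-arm ends had 39.5 CTCF summits per Mb there (31.7 to 48.8), and short-arm ends 21.8 (15.3 to 30). Distances on the long arms run from the last peak itself, and at 18 of the 22 long-arm ends that peak was a CTCF peak. Leaving out those 18 peaks gave 31.4 per Mb (24.4 to 39.7), an interval that overlapped that of the short arms. On the short arms distances run from base 1, and how much unsequenced DNA lies there was not examined. Any such DNA lowers the short-arm density, so the arms were not measured alike and a difference between them is not firm. H3K27ac in the outermost 100 kb was below its level from 0.5 to 2 Mb on both arms: short-arm ends had 24.1 H3K27ac summits per Mb there (17.3 to 32.7), and long-arm ends 27.7 H3K27ac summits per Mb there (21.2 to 35.6) without the 4 that set an end. These levels were similar to those found between 2.5 and 4.5 Mb (24.8 to 31.3 per Mb over both arms) and above the 15.9 of the remaining autosomal sequence.

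Ends differed widely from one another. CTCF counts in the outermost 1 Mb ran from 6 at 3p to 63 at 14q, with a median of 20, and H3K27ac counts from 0 at 3p to 206 at 16q, with a median of 43. The end was denser than its next 4 Mb at 28 of 39 ends for CTCF and at 28 for H3K27ac, and the median ratio over ends was 1.24 for both marks. CTCF was less dense than in the next 4 Mb at 11 ends. H3K27ac was less dense at 10 ends and equally dense at 1q. Pooled over short arms the ratios were 1.20 for CTCF and 1.17 for H3K27ac, and over long arms 1.32 and 1.41.

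A few ends stood far above or below their next 4 Mb, and those named here were chosen after their values were seen. CTCF at 22q had 36 peaks in the outermost 1 Mb against 8.5 per Mb in the next 4 Mb, a ratio of 4.24. It was followed by 5p (3.43) and 10q (3.22), and the lowest ratios were at 4p (0.612) and 17p (0.621). For H3K27ac the highest ratios were at 12q (4.67), 16q (4.43), 5p (4.09), 11p (3.91) and 20q (3.48). The lowest were 0 at 3p, 0.00864 at 14q, 0.400 at 4q, 0.417 at 6p and 0.464 at 19p. At 19p the outermost 1 Mb was rich in H3K27ac, with 69 peaks, but the next 4 Mb held 148.75 per Mb. High ratios depend on the next 4 Mb too. At 5p the outermost 1 Mb held 89 H3K27ac peaks and the whole next 4 Mb 87. From 2 to 5 Mb 5p had 0. From 2.5 to 4.25 Mb H3K27ac had 0 peaks at both 12q and 20q. CTCF at 22q had at most 1 peak per 250 kb from 1.25 to 3.25 Mb. At 16q the next 4 Mb held 46.5 H3K27ac peaks per Mb and at 11p 23, against a median of 24 over the 39 ends. Over the 39 ends the counts of the 2 marks ran together with a Spearman rho of 0.673 and a Pearson r of 0.471. In the next 4 Mb these were 0.889 and 0.925. Without 14q the values at the ends were 0.801 and 0.699 over 38 ends. These are descriptions over ends of the same 2 libraries, which share sequencing depth, and carry no test.

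**Figure D2:**
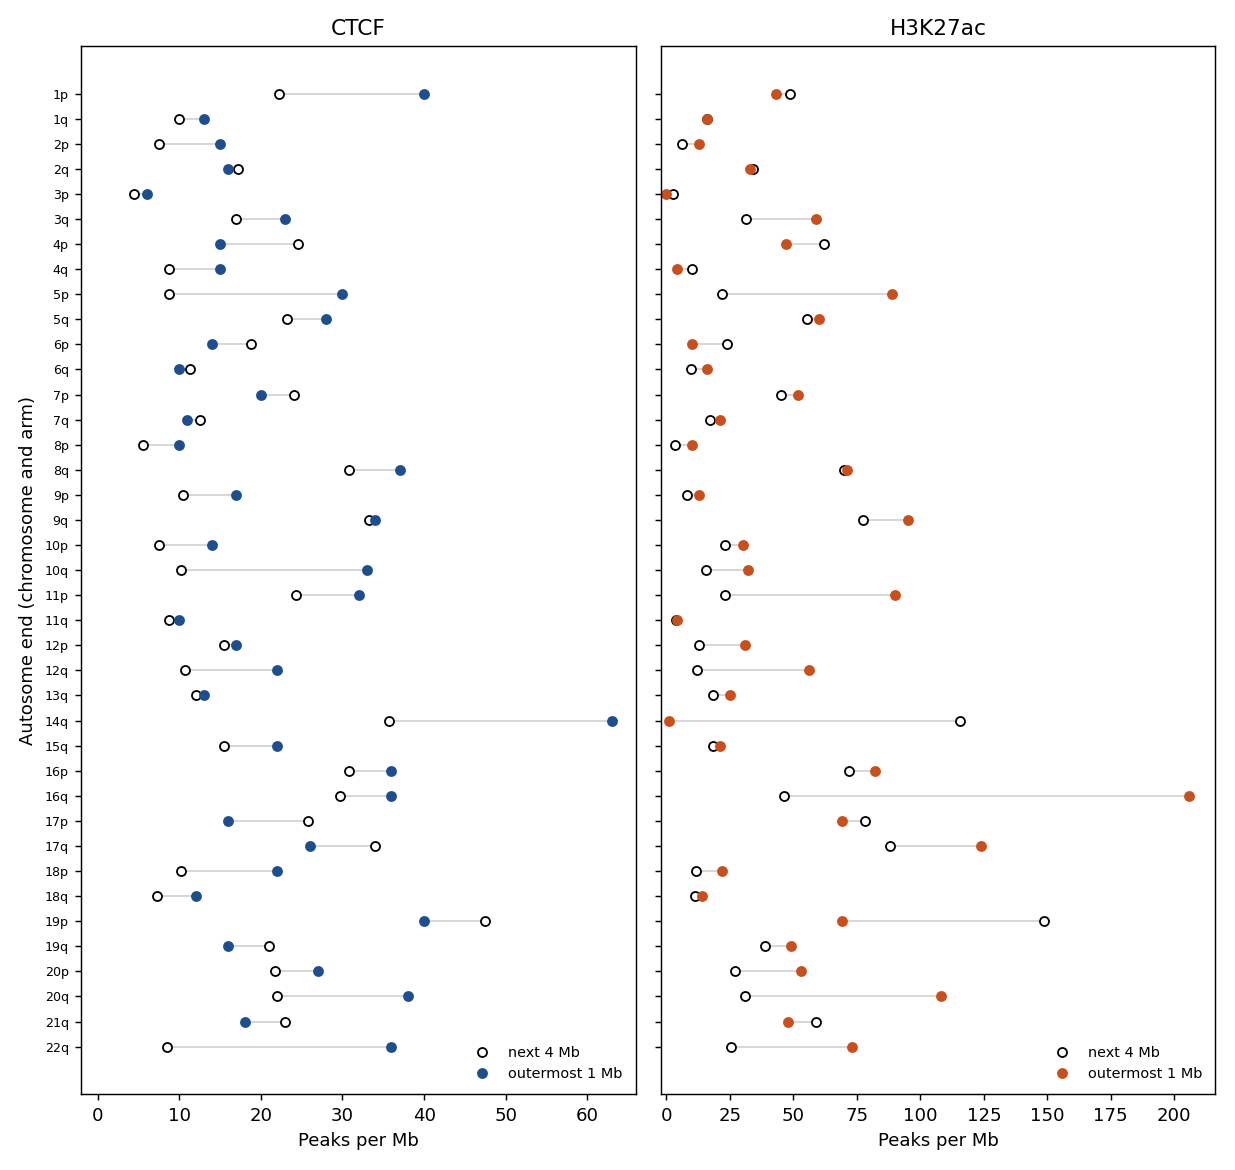
Peaks per Mb in the outermost 1 Mb (filled) and in the next 4 Mb (open) at each of 39 autosome ends, for CTCF (left) and H3K27ac (right); p marks short arms and q long arms, and there is 1 library per mark. At most ends the filled point lies to the right of the open one, and 14q stands apart, with 63 CTCF peaks and 1 H3K27ac peak in its outermost 1 Mb.

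The outermost peak of a chromosome was usually CTCF. It was CTCF at 31 of 39 ends (13 of 17 short-arm and 18 of 22 long-arm ends) and H3K27ac at the other 8 (19p, 13q, 22q, 7p, 12p, 3q, 12q and 10p). The median lead of CTCF over the first H3K27ac peak was 31.0 kb, from 85.0 kb behind it at 19p to 3083 kb ahead at 3p. The lead exceeded 20 kb at 22 ends and 100 kb at 8 ends. A CTCF peak lay within 100 kb of the end at 35 ends and an H3K27ac peak at 29. Within 30 kb the numbers were 30 and 14. On the long arms the outermost distance is 0 by the rule for whichever mark comes last. Short-arm distances are not set by a peak, but they count from base 1 and include any unsequenced DNA, which was not examined. On the short arms the outermost CTCF peak lay at a median of 21.01 kb from base 1 (11.1 to 155 kb). The outermost H3K27ac peak lay at a median of 64.9 kb (11.7 to 3168 kb).

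**Figure D3:**
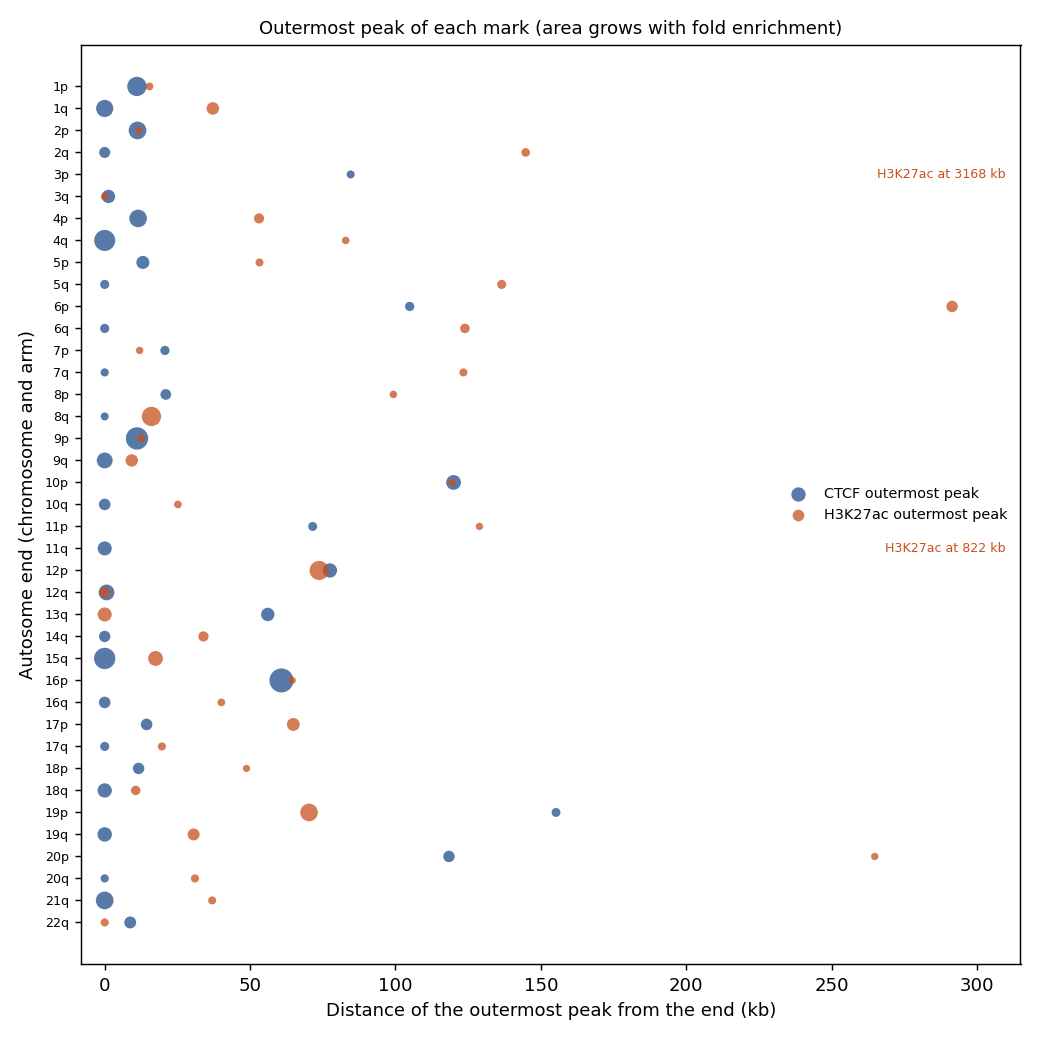
Distance in kb from the end to the outermost CTCF peak (blue) and the outermost H3K27ac peak (orange) at 39 autosome ends, with point area growing with fold enrichment within each list; H3K27ac at 3p (3168 kb) and 11q (822 kb) lies beyond the axis and is written in. CTCF lies nearer the end at 31 of 39 ends, and on the long arms a distance of 0 follows from measuring from the last peak.

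At 5 short arms the first CTCF peak lay at nearly the same distance from base 1. Those of 1p, 2p, 4p, 9p and 18p began between 11.1 and 11.7 kb, with fold enrichments from 11.4 to 49.0. At 9p the peak spanned bases 11107 to 11629 with a fold of 49.0 and 214 fragments at its summit. At 1p it spanned 11075 to 11541 with a fold of 36.3 and 158 fragments. At 4p it spanned 11493 to 12480 (fold 29.7), and at 2p 11287 to 12066 (fold 30.1), where the first H3K27ac peak, 11735 to 12022 with a fold of 3.83 and 15 fragments, lay wholly inside it. At 18p it spanned 11661 to 11980 and had the lowest fold of the group, 11.4. Segments near chromosome ends recur on several chromosomes, and whether reads of one end were placed on another was not tested. How much of the shared distance from base 1 is unsequenced DNA was not examined.

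The outermost CTCF peaks were often strong, but not at every end. Their median fold was 12.6, with a range of 4.58 to 57.0, against 9.52 for the whole list, and 28 of 39 exceeded that list median. Of the 39, 12 (30.8%, 18.6 to 46.4) were in the top 10% of the list by fold, against 10.0% by definition. Among all CTCF peaks the share was 15.1% in the outermost 1 Mb and 16.2% in the next 4 Mb. Without 9p and 16p it was 10 of 37 outermost peaks (27.0%, 15.4 to 43.0). The 12 were those of 1p, 1q, 2p, 4p, 4q, 9p, 9q, 10p, 12q, 15q, 16p and 21q. Those 12 had 75 to 215 fragments at their summits, and 3 of them overlapped H3K27ac. Outermost H3K27ac peaks had a median fold of 4.79 against 4.55 for their list, and 6 of 39 (15.4%, 7.25 to 29.7) were in the top 10%. On the long arms the median CTCF fold was 14.5 for the outermost peak, 10.3 for the next and 8.91 for the third. On the short arms it was 11.9, 9.48 and 7.39, but 11.1 for the fourth, so the values did not fall steadily.

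Several of the strongest CTCF peaks of the whole list lay at the very ends. Of the 27 autosomal peaks with rank 25 or better by fold (ties included), 7 (25.9%, 13.2 to 44.7) lay within 100 kb of an end, where 0.346% of all CTCF peaks lay. They were at 4q, 9p, 12p, 15q, 16p, 17q and 20q. The 2 on 16p and 9p were already known from an earlier look at these data and prompted the attention to chromosome starts. Without these 2 the count was 5 of 25 (20%, 8.86 to 39.1), a description only. Of the 106 with rank 100 or better, 10 lay within 100 kb of an end (8 of 104 without the same 2), 14 in the outermost 1 Mb and 14 in the next 4 Mb. Of the 100 strongest H3K27ac peaks 0 lay within 100 kb of an end (Wilson interval up to 3.70%), where 0.210% of all H3K27ac peaks lay. With so small a share, this count cannot show whether strong H3K27ac peaks were rarer there than H3K27ac peaks in general. The CTCF interval at rank 100 or better was 5.21% to 16.5%, and 3.95% to 14.4% without the same 2. At rank 500 or better, 15 of 502 CTCF peaks (2.99%, 1.82 to 4.87) and 0 of 498 H3K27ac peaks (up to 0.765%) lay within 100 kb. The difference between the marks was not tested. In the outermost 1 Mb lay 4 of the 100, against 3.69% of the list. The next 4 Mb held 19 of the 100, and 5695 of all 50364 H3K27ac peaks.

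The strongest CTCF peak of all lay at chr16:60792-61243 on 16p, with a fold of 57.0 from 198 fragments (exact Poisson interval 171 to 228). It was the first peak of its chromosome, and the nearest H3K27ac peak lay 3.26 kb away. In RefSeq's gene order (GRCh38.p14) the 16p end carries POLR3K, SNRNP25, RHBDF1, MPG and NPRL3, followed by the alpha-globin cluster HBZ, HBM, HBA2, HBA1 and HBQ1. Builds differ, so no peak was assigned to a gene. The 9p peak described above, with a fold of 49.0, had rank 3 in the list. On 17q a peak at chr17:81153012-81153978 had a fold of 46.7 from 162 fragments, had rank 4, lay 23.1 kb from the last peak and overlapped H3K27ac.

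The remaining leading CTCF peaks were the last peaks of their chromosomes. On 15q chr15:102519483-102520070 had a fold of 44.5 from 183 fragments. On 4q chr4:191041028-191042283 had a fold of 43.3 from 167 fragments, and its nearest H3K27ac peak lay 81.6 kb away. These 5 were the strongest both within 100 kb and in the whole outermost 1 Mb. Of all 125 CTCF peaks within 100 kb of an end, 27 (21.6%, 15.3 to 29.6) were in the top 10% of the list by fold, and 25 of 123 (20.3%, 14.2 to 28.3) without those on 16p and 9p. Of the 778 from 100 kb to 1 Mb, 109 (14.01%, 11.7 to 16.6) were. Local background moved with this difference: it was at the lowest level for 23.2% of CTCF peaks within 100 kb and for 47.2% farther in, and its median was 1.37 and 1.06 times the lowest level. A higher background lowers the fold of a peak with the same fragments. The part of repeated sequence and of background in the difference was not tested.

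The strongest H3K27ac peaks lay farther from the ends. The first was at chr19:797279-802729 on 19p, 797 kb from base 1, with a fold of 71.6 from 298 fragments, and overlapped a CTCF peak. It had rank 2 in its list. It was followed by chr10:135121368-135122756 on 10q (fold 52.5, 228 fragments), which also overlapped CTCF. Next were chr1:249131643-249134531 on 1q (fold 52.0, 284 fragments), chr20:277670-279647 on 20p (fold 49.8) and chr7:158496329-158497555 on 7q (fold 46.5), none of which overlapped CTCF. The widest H3K27ac peak, chr19:59064787-59071834 on 19q, spanned 7048 bases and lay 46.4 kb from the last peak. The next widest were at 20q (5948 bases), 16q (5822), 22q (5632) and 19p (5451, the strongest peak above).

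The marks overlapped about as often at the ends as in the next 4 Mb as a whole, which pooled a higher share from 1 to 2 Mb and a lower one beyond. Of 903 CTCF peaks at the ends, 196 (21.7%, 19.1 to 24.5) shared at least 1 base with an H3K27ac peak, against 586 of 2848 (20.6%, 19.1 to 22.1) in the next 4 Mb and 14.2% of the whole list. The difference between ends and next 4 Mb was 1.13 percentage points (Newcombe interval -1.85 to 4.29). It was -0.920 points on the short arms, 2.62 on the long arms and 3.15 (0.00274 to 6.47) without 14q. On the remaining sequence 13.6% overlapped, so the whole outer 5 Mb lay above it. Of 1859 H3K27ac peaks at the ends, 195 (10.5%, 9.18 to 11.96) shared a base with CTCF, against 10.4% in the next 4 Mb and 10.1% of the whole list, a difference of 0.0417 points (-1.51 to 1.70).

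For CTCF peaks, counting nearness gave a larger difference than counting shared bases. The CTCF summit lay inside an H3K27ac peak for 121 peaks (13.4%) at the ends and 12.5% in the next 4 Mb, against 8.40% of the list. An H3K27ac peak held a CTCF summit in 5.92% of cases at the ends, against 5.66% of the list. An H3K27ac peak within 1 kb was found for 32.0% of CTCF peaks at the ends (29.0 to 35.1), 28.2% in the next 4 Mb (26.5 to 29.8) and 19.9% of the list, a difference of 3.84 points (0.440 to 7.35). For H3K27ac peaks the share within 1 kb of CTCF was 19.4% at the ends, 17.7% in the next 4 Mb and 17.2% in the list, a difference between the zones of 1.68 points (-0.324 to 3.78). The median distance from a CTCF peak to the nearest H3K27ac peak was 6.36 kb at the ends (5.04 to 8.25) and 8.67 kb in the next 4 Mb (7.80 to 9.83). More than 50 kb separated 20.3% and 20.1% of CTCF peaks from H3K27ac. H3K27ac density differed between the zones too, and its part in these distances was not tested.

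**Figure D4:**
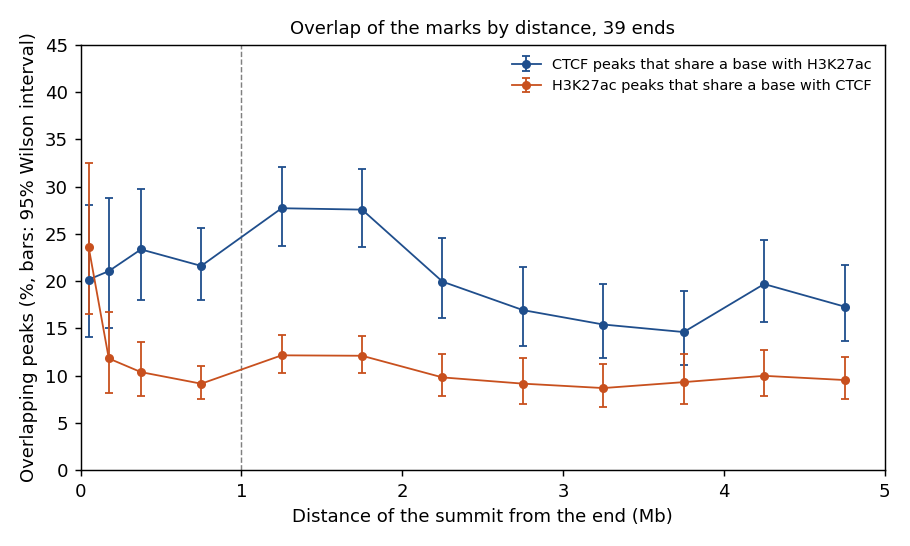
Percent of CTCF peaks sharing a base with H3K27ac (blue) and of H3K27ac peaks sharing a base with CTCF (orange), with Wilson 95% intervals, by distance of the summit from the end in Mb over 39 ends; the dashed line marks 1 Mb. CTCF overlap peaks between 1 and 2 Mb at 27.6%, and the outermost 100 kb shows the highest H3K27ac value, 23.6%.

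Overlap was not even along the ends. For CTCF it lay between 20.2% and 23.4% in every interval of the outermost 1 Mb, was 27.6% from 1 to 2 Mb (24.8 to 30.7) and 17.3% from 2 to 5 Mb (15.7 to 19.1). Within 30 kb of an end, where 29 H3K27ac peaks lay, 5 of 55 CTCF peaks (9.09%, 3.95 to 19.6) overlapped H3K27ac. The 14.2% of the whole list lies inside this interval. Of the few H3K27ac peaks within 100 kb of an end, 25 of 106 (23.6%, 16.5 to 32.5) overlapped CTCF. The share was 9.70% (8.40 to 11.2) from 100 kb to 1 Mb and 10.1% in the whole list. The H3K27ac peaks nearest the ends thus shared a base with CTCF at a higher rate than those farther in, in these lists and with no test. The outermost 100 kb also held fewer H3K27ac peaks per CTCF peak, 0.855 (peaks that set long-arm ends included) against 2.41 from 500 kb to 1 Mb. In the same 2 stretches the CTCF share was similar, at 20.2% and 21.6%. The part of peak numbers in the higher H3K27ac rate was not tested.

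Peaks with both marks differed from the rest in the same way in both zones. At the ends, CTCF peaks that overlapped H3K27ac had a median fold of 11.7 and the others 10.0, and in the next 4 Mb the medians were 11.7 and 10.6. H3K27ac peaks that overlapped CTCF had a median fold of 7.98 and a median width of 912 bases at the ends, against 4.31 and 524.5 bases for the others. In the next 4 Mb these were 8.73 and 931 bases against 4.30 and 537.5. The part that width played in overlap was not tested.

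The share of CTCF peaks that overlapped H3K27ac ran from 0 to 57.9% between ends. It was highest at 20q, where 22 of 38 CTCF peaks overlapped H3K27ac (57.9%, 42.2 to 72.1). At 16q it was 14 of 36 (38.9%, 24.8 to 55.1). At 7 ends no CTCF peak overlapped H3K27ac: 3p, 6p, 6q, 8p, 11q, 13q and 14q, with 126 CTCF peaks between them. At 14q this meant 0 of 63, but its outermost 1 Mb had 1 H3K27ac peak, which left little room for overlap. At 3p, with 0 H3K27ac peaks, no overlap was possible. The other ends in this group had 10 to 14 CTCF peaks each and from 4 (11q) to 25 (13q) H3K27ac peaks. Without 14q the share over the other 38 ends was 23.3% (196 of 840, 20.6 to 26.3).

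The 14q end had the most CTCF peaks and almost no H3K27ac. Its 63 CTCF peaks had folds from 4.04 to 30.7 with a median of 9.48, near the 9.52 of the whole list, and 4 were in the top 10%. They lay a median of 11.7 kb apart, against 21.7 kb over all ends, but the CTCF peaks of the next 4 Mb of 14q lay as close, a median of 10.7 kb apart. The single H3K27ac peak, chr14:107252151-107253802, spanned 1652 bases with a fold of 8.80 from 42 fragments, 34.0 kb from the last peak. In the next 4 Mb of the same arm both marks were frequent, with 143 CTCF and 463 H3K27ac peaks, and 28.0% of the CTCF peaks overlapped H3K27ac. In RefSeq's gene order (GRCh38.p14), 89 of the outermost 100 genes of 14q belong to the immunoglobulin heavy chain locus IGH, 88 of them variable (V) segments. That locus is rearranged and expressed in B cells, and its V segments are known for an array of CTCF sites. RefSeq's build is not that of the files, so the peaks were not placed on single segments.

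The 16q end had the most H3K27ac. Its 206 H3K27ac peaks covered 169.5 kb, and its next 4 Mb held 46.5 peaks per Mb. The count rose inward, from 31 in the outermost 250 kb to 83 between 0.75 and 1 Mb, and was 5 in the 250 kb just beyond. Most of the 206 peaks were weak. Their median fold was 4.07, against 4.55 for the list, with a median of 18 fragments. Of the 206, 14 were in the top 10% by fold, which held 10.0% of the list. They lay a median of 1.31 kb apart, against 2.81 kb over all ends. CTCF was less unusual there, with 36 peaks against 29.75 per Mb in the next 4 Mb. Leaving out 16q lowered the H3K27ac density ratio over all ends from 1.31 to 1.20, and leaving out 14q raised it to 1.42.

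The 3p end was the emptiest. It held 6 CTCF peaks with folds from 3.96 to 8.62, all below the list median, and no H3K27ac peak. The first H3K27ac peak lay 3168 kb inward, at chr3:3167896-3170367, with a width of 2472 bases and a fold of 37.6. The next 4 Mb held 18 CTCF and 10 H3K27ac peaks. The first protein-coding genes with a gene symbol at this end in RefSeq's order (GRCh38.p14) are CHL1, CNTN6 and CNTN4, cell adhesion molecules known from the nervous system.

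**Figure D5:**
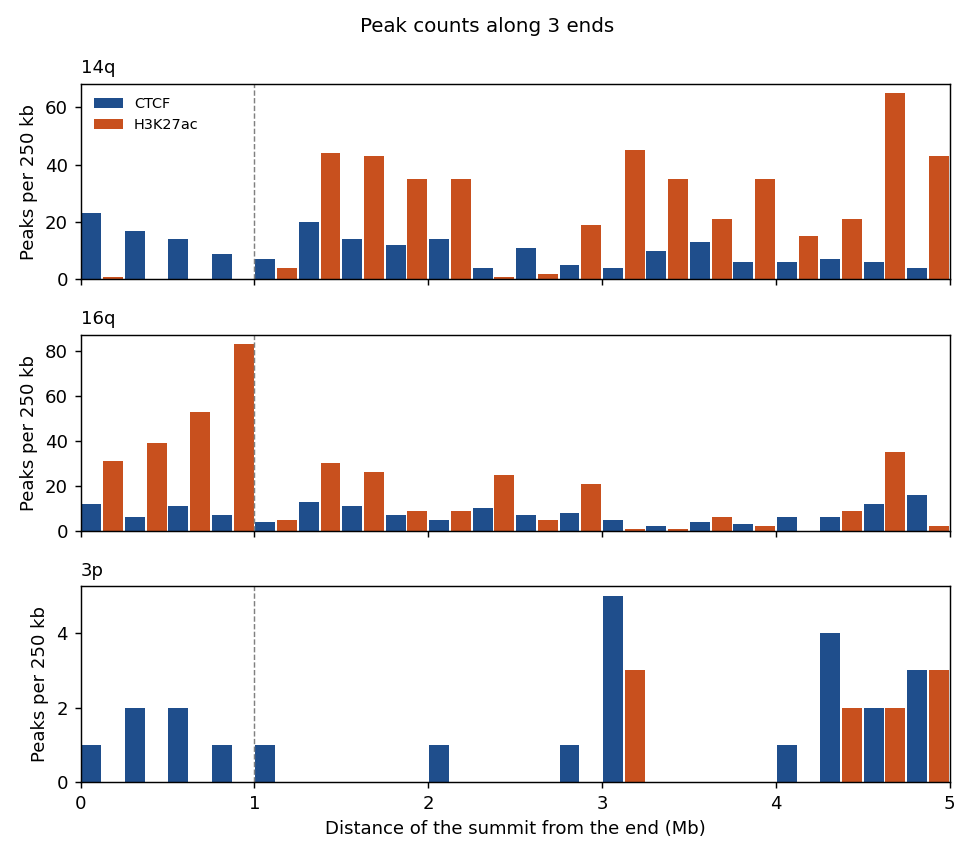
Peaks per 250 kb (vertical axes differ between panels) by distance of the summit from the end in Mb at 14q, 16q and 3p, for CTCF (blue) and H3K27ac (orange); the dashed line marks 1 Mb. At 14q CTCF fills the outermost 1 Mb where H3K27ac has 1 peak, at 16q H3K27ac reaches 83 peaks just inside 1 Mb, and at 3p H3K27ac begins beyond 3 Mb.

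The line at 1 Mb cut through runs of peaks at several ends. At 1p the last CTCF peak inside, bases 999142 to 999549, had a fold of 21.5, and the first outside, 1057293 to 1057788, a fold of 9.91. For H3K27ac at 1p the last inside, 998211 to 998601, had a fold of 4.55 and the first outside, 999057 to 1000337, a fold of 11.3. At 19p the last CTCF peak inside had a fold of 7.76 (989519 to 989850) and the first outside 24.4 (1000081 to 1000478). At 17q the last H3K27ac peak inside had a fold of 3.11 (80183239 to 80183526) and the first outside 21.4 (80173994 to 80177362). Over the 6 ends examined in this way and both marks, the peak outside had the higher fold in 6 pairs and the peak inside in 6. For CTCF the peak outside was higher at 4 of 6 ends, and for H3K27ac at 2 of 6.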

How the data were processed

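CTCF and H3K27ac peak lists of DU145, 1 library each, were analysed; the input libraries were not analysed here. Bowtie, MACS2 and build hg19 are named, per the submitters' processing notes. Their versions and settings, and the input library behind each background, were not given in the sources used here. The authors deposited positions and summit offsets, a whole-number score (not used), a fold enrichment (the linear ratio of summit to local background), and −log10 p-values and −log10 q-values. No peak had a −log10 q below 1.31. Positions count from 1.

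Fragments and local background at each summit were solved from the fold and −log10 p (tolerance 0.002), which gave a whole number for 100% of peaks. Medians were 45 CTCF fragments (10 to 308) and 23 H3K27ac fragments (10 to 568), which set the precision of single peaks. The lowest background was 2.18 and 3.18 fragments, and peaks within 0.5% of it were counted as at the lowest level. Scales differed, so folds were compared only within a list. Densities used summits in the distance profile and whole peaks elsewhere. Overlap required 1 shared base. Intervals were exact Poisson, Wilson, exact conditional, Newcombe and order-statistic, and the counting was tested on simulated data. Python 3.11.15, numpy 2.4.6, scipy 1.17.1, pandas 2.3.3 and matplotlib 3.10.9 were used.

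Peaks named were the outermost of each mark where it lies nearest an end, the 5 strongest CTCF and H3K27ac peaks at the ends, the 5 strongest CTCF peaks within 100 kb, the 5 widest H3K27ac peaks, the ends with the highest, lowest and no counts, and peaks at the 1 Mb line. Others were chosen after their values were seen. The ends and these lists were chosen with earlier results of these data known. Gene order came from RefSeq (GRCh38.p14); since builds differ, no peak was assigned to a gene and no motif was searched. The alternatives were other limits for the ends, each arm, stricter lists, other overlap rules, all other sequence as the comparison, and single ends left out.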

Additional observations from a re-analysis of the deposited data

How the results depend on the processing

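Of 76 alternatives over 6 results, 57 stayed within the interval of the value reported and 19 did not. The 2 density ratios stayed above 1 in all of theirs. For overlaps and fold ratios, whose reported intervals include no difference, 6 alternatives lay on the other side of it. Leaving out 14q, 16q, the last peak of each chromosome, each end in turn, or the 2 known CTCF peaks, was chosen after seeing the data. The CTCF density ratio of 1.27 was 1.47 with ends of 2 Mb and 1.89 against all sequence outside the ends. The H3K27ac ratio of 1.31 was 1.02 with ends of 0.5 Mb, 1.76 with 2 Mb, 1.17 on short arms, 1.41 on long arms, 2.79 against all sequence outside, 1.42 without 14q and 1.20 without 16q. The difference in CTCF overlap, 1.13 points, was -0.920 on short arms, 2.62 on long arms, 8.09 points with 2 Mb and 7.48 against all sequence outside, and that in H3K27ac overlap (0.0417 points) 2.29 with 0.5 Mb, 2.18 with 2 Mb, -0.0829 with short arms measured from the outermost peak and -0.0553 without 14q. The ratio of median CTCF folds, 0.955, was 0.876 on short arms, 1.0055 among peaks above the list median and 1.06 against all sequence outside. That of H3K27ac folds, 1.04, was 1.09 at a −log10 q of 10 or more, 1.06 among peaks above the list median, 0.989 on short arms and 1.06 on long arms. With each end left out in turn, the CTCF density ratio ran from 1.23 (without 22q) to 1.30 (without 19p), and the CTCF overlap difference from -0.573 (without 20q) to 3.15 points (without 14q). The H3K27ac overlap difference ran from -0.492 (without 20q) to 0.549 points (without 16q). The cause of these shifts was not tested. At 10 fragments, the depth of the weakest peaks, folds cannot be ordered reliably. No paired analysis was possible because each mark had 1 library.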

Other observations

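Stretches of at least 1 Mb without an H3K27ac peak were listed after the 14q values were seen. There were 451 on the autosomes, with a median of 5.36 CTCF peaks per Mb. The densest in CTCF was chr14:106186070-107252150, most of the outermost 1 Mb of 14q, with 58 CTCF peaks in 1.07 Mb, or 54.4 per Mb (exact Poisson interval 41.3 to 70.3). The second, chr1:152276772-153281944, had 34 peaks, or 33.8 per Mb (23.4 to 47.3). The third, chr7:141438904-142506013, had 32 peaks, or 29.99 per Mb (20.5 to 42.3). The next, chr1:17896877-19228587, had 32 in 1.33 Mb, or 24.03 per Mb (16.4 to 33.9), followed by chr2:89128092-90288160 with 24, or 20.7 per Mb (13.3 to 30.8). The interval of the 14q stretch overlapped that of the second, so their order is not firm.

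Gaps between neighbouring peaks of the same mark were similar in the outermost 1 Mb and the next 4 Mb. The median CTCF gap was 21.7 kb (19.2 to 24.4) and 23.9 kb (22.5 to 25.2), and 8.68% and 8.79% of gaps were under 2 kb. The median H3K27ac gap was 2.81 kb (2.44 to 3.29) at the ends and 2.30 kb (2.08 to 2.52) in the next 4 Mb, although the ends had more H3K27ac peaks per Mb. Counts at an end and in its next 4 Mb ran together over the 39 ends with a Spearman rho of 0.627 for CTCF and 0.649 for H3K27ac (Pearson r 0.652 and 0.399), given as a description with no test.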
